A study of Homo sapiens with 4 samples.

Results

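KYSE410 cells, an established line from a human squamous carcinoma of the oesophagus, were profiled. Their transcriptome without an inflammatory stimulus was read on 1 single-colour NimbleGen expression array. The cells had received phosphate-buffered saline (PBS), the solvent control, for 24 h, in RPMI 1640 medium with fetal bovine serum, penicillin and streptomycin. Doses, not given in the sources used here, cannot be stated. This is 1 of 4 samples of a series that screened for transcripts responsive to inflammation. The other 3 arrays hold cells of the same line treated for 24 h with 1 of 3 inflammatory agents: the cytokine TNFα, the cytokine IL1β, or LPS, the lipopolysaccharide of bacteria, and their values are given for a few genes beside those with PBS, with no comparison of treatments. Genes were ranked by the log2 intensity deposited for the PBS array. A gene took its brightest probe set, and 17185 genes could be named.

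Squamous epithelium is built on a basal layer of dividing cells that hold keratins 5 and 14, the transcription factor p63, and integrin and laminin anchors to the basement membrane. As cells leave that layer they join through desmosomes, change their keratins (to keratins 4 and 13 in the oesophagus, to 1 and 10 in the skin) and make envelope proteins such as involucrin and the small proline-rich proteins. Squamous carcinomas keep much of the basal programme, often with the keratins 6, 16 and 17 of wounded epithelium.

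There was 1 array, hence no replicate error and no test, and every value below describes that array. Probes differ in how strongly they bind, so a rank is a rank of signal, and no gene is said to have more transcripts than another. A set of 5000 random-sequence probes gave the background, an intensity of 54.1. Genes at 108 or more, 2 times that control set, are called above background, and the others near background. By this limit 12387 of 17185 named genes (72.1%) were above background, and the brightest 10% (1719 genes) began at 1942. The median gene had an intensity of 268, or 4.96 times the control set. Of the 12387 genes, 10624 were above the limit on each of the other 3 arrays too, and of 4798 genes near background 3231 were near it on all 4. Where a gene had 2 or more probe sets (1349 genes), the 2 brightest differed by a median of 1.55-fold and 83% of the pairs lay on the same side of the limit. The other 15836 genes rest on a single set.

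**Figure D1:**
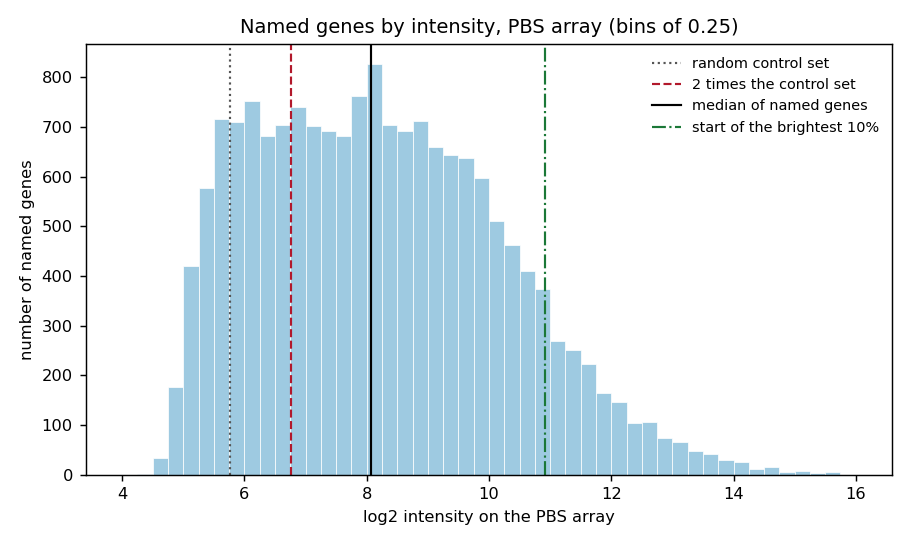
The histogram plots the number of named genes (vertical axis) by log2 intensity on the PBS array (horizontal axis), for 17185 genes. Vertical lines mark the random control set (intensity 54.1), 2 times that value, the median gene (268) and the start of the brightest 10% (1942), and the genes form 1 broad distribution with no gap at the background limit.

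The label of the cells was first set against marker genes. KRT14, the type I keratin of the basal layer, had an intensity of 8406 with PBS, 155 times the control set, and 8978, 8297 and 20039 on the TNFα, IL1β and LPS arrays. TP63, which encodes p63, had 986 with PBS, 18.2 times the control set, and 949, 933 and 2747 on the same 3 arrays. CDH1, E-cadherin of the epithelial adherens junction, had 1209 with PBS, 22.3 times the control set. Its values on the same 3 arrays were 232, 287 and 284. KRT5, the partner of KRT14, had 49361 with PBS, and it was the third brightest of all named genes. All 4 markers were above background on each of the 4 arrays.

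Markers of 12 other cell types gave a mixed picture. Of 40 such genes 16 were near background, 24 above it, and 7 in the brightest 10%. The T cell markers CD3D, CD3E and CD2 were all near background, at 107, 50.2 and 99.5. Other types were split between their markers. In liver ALB (albumin) had 52.5, but APOA1 and TTR had 193 and 265. In neurons SNAP25 and STMN2 had 55.7 and 46.2, and SYP (synaptophysin) had 681. Of B cell genes MS4A1 had 41.5, and CD79A had 295. In melanocytes TYR and PMEL had 32.1 and 64.8, and MLANA had 210.4. In glandular epithelium CDX2 and TFF1 had 59.6 and 35.2, and VIL1 had 714. All 3 endothelial markers, from VWF at 120.3 to PECAM1 at 419, and all 4 of fibroblasts, from COL3A1 at 149.9 to COL1A2 at 736, were above background. The 7 bright ones were 4 markers of heart muscle, ACTA1 and CKM of skeletal muscle and LYZ of myeloid cells. Among them were MYH6, a myosin heavy chain of the atria, at 9469.8, and LYZ, lysozyme, at 6917. The lists of these lineages are described further on. The part of other cells in the values of the squamous genes was not tested. In RNA of whole cultures, fewer cells of a type and less RNA per cell cannot be told apart.

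Genes listed for the basal squamous programme were bright throughout. Like the other lists, this one was chosen with earlier results of these data known. Its counts describe the listed genes and are no independent support for the programme. All 26 members of the basal identity list were above background (72.1% of all named genes were), all 26 were above the median gene, and 13 lay in the brightest 10%. Their median log2 intensity was 10.94, against 8.07 over all named genes. Beside KRT5, KRT15, a type I keratin of basal cells, had an intensity of 26218. Of the anchors to the basement membrane, the laminin 332 chains LAMB3 and LAMA3 had 10379 and 1250.3, the hemidesmosomal collagen COL17A1 5545 and the integrin subunits ITGB4 and ITGA6 4600.1 and 800.4. The desmosomal proteins PKP1 (plakophilin 1) and DSG3 (desmoglein 3) had 8290.0 and 4113. SOX2, a lineage transcription factor of the oesophagus that is often amplified in squamous carcinomas, had 6942. PERP, a p63 target in desmosomes, had 6144, the Notch ligand JAG2 4777, TRIM29 4167 and the calcium-binding protein S100A2 1751. The dimmest members were BNC1, a zinc finger protein of basal keratinocytes, at 338, and CALML3, a calmodulin-like protein of epithelium, at 414. Every one of the 26 was also above the limit on the other 3 arrays, and 10624 of 17185 named genes were above it on all 4.

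All 6 wound-type keratins lay in the brightest 10%. KRT6C had an intensity of 38745, KRT6A 37635 and KRT6B 25955. These 3 genes are near-identical copies, and their probe sets may share signal, so they are best read as 1 group. The type I keratins KRT17 and KRT16, which pair with them, had 11053 and 6336, and KRT75, a keratin of the hair follicle, had 5956. The keratins of simple epithelia, which line glands and ducts, were also present. KRT8 had 19465, its partner KRT18 7631, KRT7 5172 and KRT19 1835, while the intestinal keratin KRT20 was just over the limit with 113. In all, 42 of 53 keratin genes measured were above background (79.2%, beside 72.1% of all genes) and 13 were in the brightest 10%. The 13 are shown at the upper end of the plot of keratins, and the next gene below them is KRT19. Hair keratins such as KRT35 (1079.9) and KRT71 (898), named after their values were seen, were above background too, and the part of signal shared between keratin genes was not tested.

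**Figure D2:**
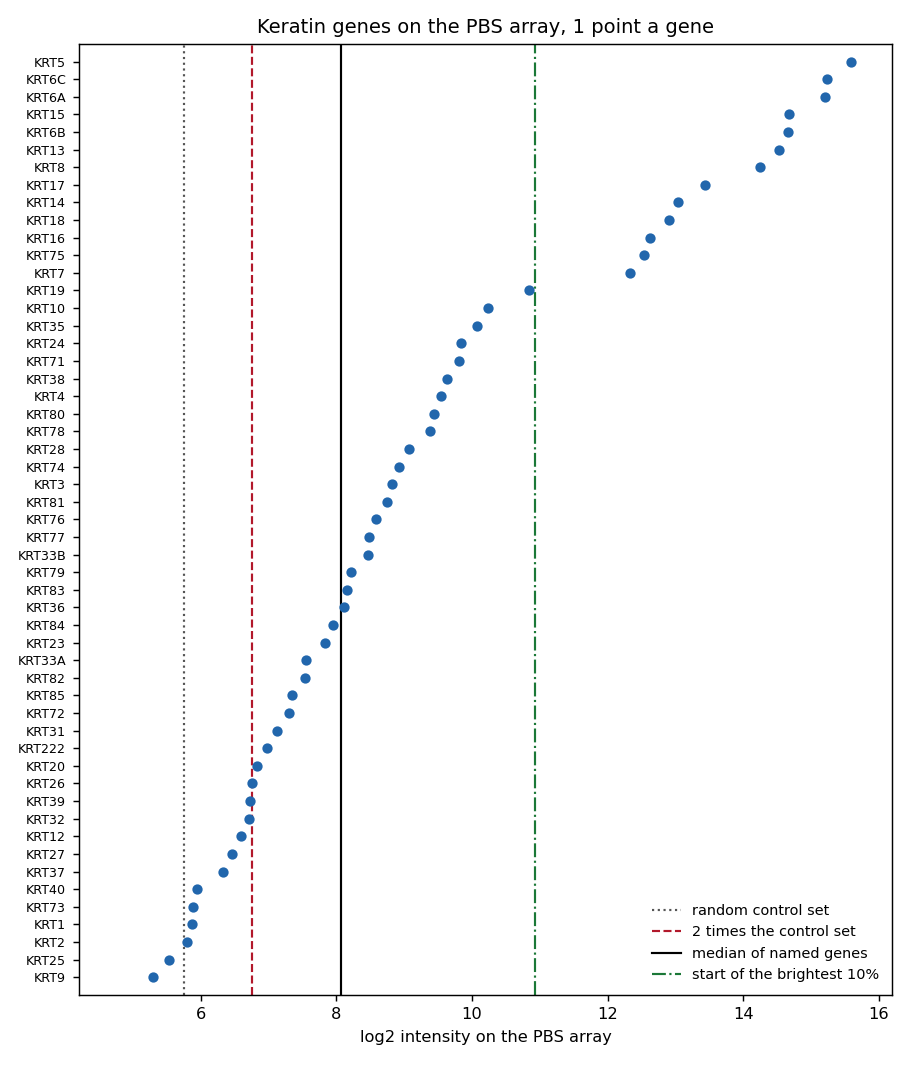
Each point is 1 of 53 keratin genes, placed by its log2 intensity on the PBS array (horizontal axis), with the same 4 reference lines as in the histogram. The 13 genes right of the start of the brightest 10% run from KRT7 (5172) to KRT5 (49361), and KRT1, KRT2 and KRT9 lie at or near the random control set.

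Genes of later squamous differentiation were divided. Of 50 suprabasal and cornified genes 29 (58%) were above background, fewer than the 72.1% of all named genes, and 2 were in the brightest 10%. Their median log2 intensity was 7.26. KRT13, the suprabasal keratin of the oesophagus, had an intensity of 23485, whereas its partner KRT4 had 745. The protease inhibitors CSTB and CSTA (cystatins B and A) had 2432 and 1386, the cross-linking enzyme TGM1 929, and the envelope proteins EVPL (envoplakin), PPL (periplakin), SPRR1B and IVL (involucrin) 936, 785, 862 and 396. Several genes of fully cornified skin were near background, although CDSN (corneodesmosin) had 385 and TGM3, another cross-linking enzyme, 191. KRT1 had 58.6, KRT2 55.6, LORICRIN, the main envelope protein of skin, 57.3, the filaggrins FLG and FLG2 78.5 and 37.1, and the desmosomal cadherins DSG1 and DSC1 of upper layers 60 and 32. KRT10, the usual partner of KRT1, had 1207 all the same. Of 21 members near background 13 were near it on all 4 arrays, beside 3231 of 4798 named genes.

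Of 27 squamous lineage transcription factors measured 24 (88.9%) were above background, beside 72.1% of all named genes, and 4 (14.8%) in the brightest 10%. Besides SOX2 these were ELF3, an epithelial ETS factor (4018), GRHL2, a keeper of epithelial junction genes (2407), and PITX1 (1973). TFAP2A had 1777, FOXE1 1419.6, KLF5 1040.1 and PAX9, a factor of the oesophageal epithelium, 831. Factors of differentiating layers were dimmer, with GRHL3 at 242 and ZNF750 at 239. BARX2, PRDM1 and MSX2 were near background, at 100.4, 93.6 and 53.3.

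Adhesion genes of epithelium were nearly all above background, 28 of 29 (96.6%, beside 72.1% of all genes), with 14 in the brightest 10%. JUP (plakoglobin) had an intensity of 18664 on its brighter set and 3579 on the other. SFN (stratifin, 14-3-3σ) had 17573, CDH3 (P-cadherin) 13041, the tetraspanin CD9 12676, the catenins CTNND1 and CTNNA1 9586 and 7728, and DSP (desmoplakin) 9191. EPCAM had 4679, and ESRP1, a splicing factor of epithelial cells, 7107 on its brighter and 886 on its other set. Tight junction genes were less bright, with CLDN4 at 1852, CLDN7 at 1597, CLDN1 at 663, TJP1 at 578 and OCLN at 222, and CGN (cingulin) was near background at 93.7. Of 17 genes of mesenchymal transition 14 (82.4%) were above background, but 1 only, VIM (vimentin, 6935), lay in the brightest 10%. The transcription factors of this list ranged from FOXC2 (1856), SNAI2 (589.6), TWIST1 (551) and SNAI1 (505) to ZEB1 (133), PRRX1 (50.3) and ZEB2 (44). PRRX1 and ZEB2 were near background. CDH2 (N-cadherin) had 302 and FN1 (fibronectin) 257.

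**Figure D3:**
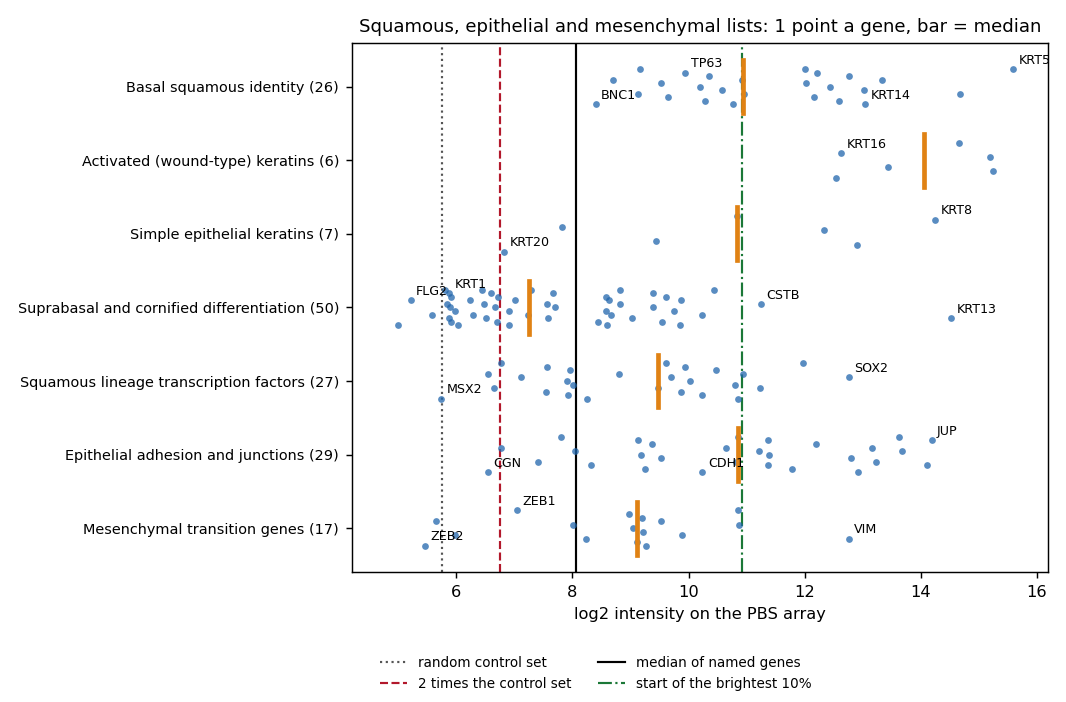
Each point is 1 gene, placed by its log2 intensity on the PBS array (horizontal axis) in the row of its list, with the number of genes measured in brackets, orange bars for list medians and 4 reference lines. The basal list lies wholly right of the median gene, and the suprabasal and cornified list spreads from KRT13 (23485) down to genes at the random control set.

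Of 60 oncogenes measured 57 were above background (95%, beside 72.1% of all genes), and 16 were in the brightest 10%. MYC, a transcription factor of growth and division, had an intensity of 9334. EGFR, the receptor of epidermal growth factor, had 4 probe sets, which gave 9123, 8471, 6204 and 1729, all above background. The dimmest of these sets lay under the start of the brightest 10% (1942), so the place of EGFR there depends on the set. AKT1, a kinase of survival signalling, had 8023, the small GTPases RAC1 and RHOA 6063 and 4865, and CDK4, the kinase of the G1 cyclins, 5495. Of genes in the 11q13 region that is often amplified in squamous carcinomas, CCND1 (cyclin D1) had 2854, CTTN (cortactin) 1961, LTO1 1960.3, FADD 634 and ANO1 239.7. The RAS genes HRAS and NRAS had 2804 and 2471. ERBB2 had 658 and MET 824. BCL2, an inhibitor of apoptosis, had probe sets at 1696 and 39.4, on opposite sides of the limit, so its level is not settled. PDGFRA, MYCN and KIT were near background, at 95.6, 87.9 and 33.1.

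Of 55 tumour suppressors 47 (85.5%) were above background, beside 72.1% of all genes, and 4 (7.27%) in the brightest 10%. They included the chromatin remodelling subunits SMARCB1 (5707) and SMARCA4 (3102) and AJUBA (2566), a LIM protein at cell junctions. CDKN2A, which encodes the inhibitors p16 and ARF, had 3 probe sets, at 112, 102 and 63.4, and the brightest was just over the limit of 108. CDKN2B, its neighbour, had 106, near background. CDKN1A (p21), in contrast, had 1043, and RB1 194. FHIT (75.4), CDKN1B (75.1), SMAD2 (42.4) and CUL3 (25.4) were near background. A dim probe set need not mean a silent gene. RPL28 and RPL37, ribosomal genes that dividing cells use, had only 189 and 141, and EEF1A1, a translation factor, had 568.

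Genes of cell division were bright. All 42 cell cycle genes measured were above background on all 4 arrays, as were 10624 of 17185 named genes. All 42 exceeded the median gene with PBS, and 24 lay in the brightest 10%. TYMS, which makes thymidylate for DNA synthesis, had an intensity of 13275, the replicative helicase subunit MCM7 9941, and the replication clamp PCNA 8296. Of mitotic genes CDC20 had 7759.8, UBE2C 6670.4, PLK1 6667, CCNB1 (cyclin B1) 6337 and AURKB 4348. FOXM1, a transcription factor that drives such genes, had 6009. The marker MKI67 had 1719.7. The dimmest members were E2F1 at 289.9 and the checkpoint kinase BUB1B at 419.

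Promoters of these genes shared letters that the ranking had not used. RefSeq promoter windows (build GRCh38.p14, 250 bases before to 50 after a start, the first start listed for a gene) were matched by symbol for 35 of 43 cell cycle genes and 13780 of 17185 named genes. The letters CCAAT, the core of the site of the factor NF-Y, stood on either strand in 28 of the 35 windows (80%), beside 36.7% of named genes and 35.7% of all 27305 windows. In the 100 bases before the start the shares were 65.7% of the list and 21.3% of named genes. Mitotic genes, chosen after this count was seen, are shown with their 100 bases before the start and CCAAT in capitals, and KRT5 is set beside them.
CDC20, chr1:43358881-43358980, plus strand: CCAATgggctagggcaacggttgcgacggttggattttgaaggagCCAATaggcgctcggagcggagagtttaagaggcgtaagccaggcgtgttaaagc
PLK1, chr16:23678789-23678888, plus strand: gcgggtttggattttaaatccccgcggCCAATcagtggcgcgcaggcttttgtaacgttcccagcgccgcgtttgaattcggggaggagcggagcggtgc
CCNB1, chr5:69167050-69167149, plus strand: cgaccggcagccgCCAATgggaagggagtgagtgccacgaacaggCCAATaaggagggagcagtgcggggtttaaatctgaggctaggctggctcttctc
CCNB2, chr15:59105046-59105145, plus strand: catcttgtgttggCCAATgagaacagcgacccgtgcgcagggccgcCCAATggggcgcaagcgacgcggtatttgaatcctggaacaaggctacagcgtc
KRT5, chr12:52520395-52520494, minus strand: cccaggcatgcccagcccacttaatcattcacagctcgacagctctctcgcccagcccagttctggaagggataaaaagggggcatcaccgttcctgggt

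CDC20, CCNB1 and CCNB2 each held CCAAT 2 times in this stretch and PLK1 1 time, all on the strand of the gene. In CDC20 and CCNB1 the copy nearer the start began 55 bases before it, in CCNB2 54 and in PLK1 73. These are matches of letters, and no binding was measured. The KRT5 stretch held neither CCAAT nor the exact letters TATAAA, the core of the TATA box, but it did hold the similar letters GATAAA. KRT5 does not stand for the other keratins. Only 23 of 42 keratins above background (54.8%) had a window. Over the whole window CCAAT stood in 12 of the 23 (52.2%, beside 36.7% of named genes). TATAAA stood in 14 of them (60.9%, beside 9.28% of named genes). Many keratins lacked a window, so these shares cover only part of them. These letters were also counted by level, each motif on its own and on both strands. Of the brightest 10% of genes 1441 had a window. TATAAA stood in 7.15% of these, against 9.28% of named genes and 12% of all windows. GGGCGG, the core of the GC box, stood in 69.8%, 60.1% and 44.6% of them, CCAAT in 40.4%, 36.7% and 35.7%, and TGANTCA, the core of the AP-1 site, in 4.02%, 5.58% and 7.76%. Fewer than 80% of the genes near background, and of the squamous and lineage lists, had a window, so no share is given for them.

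Of 52 receptor tyrosine kinases 37 (71.2%) were above background, close to the 72.1% of all genes, and 4 were in the brightest 10%. After EGFR, counted by its brightest set, these were EPHB4, an ephrin receptor (4112), the collagen receptor DDR1 (3987) and the Wnt co-receptor RYK (2768). PTK7 had 1421, FGFR4 1363, EPHA2 1329 and IGF1R 1175. NTRK2, a neurotrophin receptor, had probe sets at 1089, 62 and 42.2, on both sides of the limit, so its level is not settled. With a limit of 4 times the control set 24 of the 52 receptors (46.2%) were above it, beside 55.7% of all genes. Among receptors of endothelial and blood cells TEK, KDR, FLT1 and FLT3 were near background, at 27.1, 54.2, 52.7 and 48.2, while FLT4, TIE1 and CSF1R had 499, 235 and 194. ERBB4 was near background at 53.2, and ERBB3 had 505.

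Of 11 EGF family ligands 4 (36.4%) were above background, beside 72.1% of all genes. The count depends on the limit, since at 1.5 times the control set 9 (81.8%) were above it, beside 78.8% of all genes. NRG1 (neuregulin 1), a ligand of ERBB3 and ERBB4, had its brightest probe set at 1249, but its 6 other sets ran from 56.2 to 281, so the level depends on the set. AREG (amphiregulin) had 711, EREG (epiregulin) 276 and NRG4 203. TGFA (105), NRG3 (99.3), HBEGF (92.1), BTC (90.8), EPGN (86.7), NRG2 (62) and EGF itself (45.9) were near background.

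The receptors of the 3 stimuli used in the series were described in the unstimulated state. Of 23 receptors and adaptors 17 (73.9%) were above background, close to 72.1% of all genes. Both TNF receptors gave signal, TNFRSF1A at 1242 and TNFRSF1B at 1226. Of the adaptors that carry the signal onward, TRAF2 had 1287, TRADD 981, FADD 634, TRAF5 544 and the kinase RIPK1 390.5. The IL1 receptor IL1R1, by contrast, was near background at 64.7, as was the decoy IL1R2 at 49.1, and the accessory chain IL1RAP had probe sets at 131 and 86.4, on opposite sides of the limit. IRAK1, a kinase below both the IL1 and Toll-like receptors, was the brightest of the list at 3089, followed by its inhibitor TOLLIP at 1647. IRAK2 had 986, the adaptor MYD88 776, IRAK4 211 and TRAF6 166. The LPS receptor TLR4 was near background at 82.2, and so were its partner LY96 (MD-2) at 43.8 and the LPS-binding protein LBP at 38.6. The co-receptor CD14 had probe sets at 164 and 83.8, also on opposite sides. TICAM1, an adaptor of TLR3 and TLR4, had 639, TIRAP 166, and TICAM2 was near background at 53.4. Of the 6 genes near background 3 were so on all 4 arrays, beside 3231 of 4798 named genes. Among the 9 other Toll-like receptors, TLR1 alone was above background (274), while at 1.5 times the control set 4 were, and the others ran from TLR2 at 51.6 to TLR6 at 99.7.

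Cytokine and chemokine receptors were seldom bright. Of 46 cytokine receptor chains 28 (60.9%) were above background, beside 72.1% of all genes, and none was in the brightest 10%. Chains with wide tissue distribution were among the brighter ones, IFNGR2 at 618, IL4R at 606, IL13RA1 at 601, IL6ST (gp130) at 570.4, IL10RB at 485 and OSMR at 393, while IL6R had 180.3. The lymphocyte chains IL2RA and IL2RB and the growth hormone receptor GHR were near background, at 36.9, 60.1 and 59.8. The brightest probe set of the list was that of IL9R at 741, a receptor chain better known from blood cells. Other blood cell chains, IL5RA, CSF3R and CSF2RA, had 493, 347 and 329 on their brightest sets. Their dimmest sets had 57.5, 116 and 39.4. Of 21 chemokine receptors 12 (57.1%) were above background, and 5 (23.8%, beside 55.7% of all genes) were above 4 times the control set. They were led by ACKR3 at 714, and CXCR4 had 185. In the wider TNF receptor family 18 of 22 (81.8%) were above background, with LTBR, the lymphotoxin β receptor, at 3391 in the brightest 10%. The death receptors TNFRSF10A and TNFRSF10B, which bind TRAIL, had 1437 and 1261, and FAS had 156.

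Of 30 Notch, Wnt, Hedgehog and TGF-β receptors 25 (83.3%) were above background, beside 72.1% of all genes. The Wnt co-receptors LRP6 and LRP5 had 2710.3 and 1499, SMO of the Hedgehog pathway 879, FZD5 639.9, NOTCH1 487, NOTCH2 282, NOTCH3 266 and the TGF-β receptors TGFBR2 and TGFBR1 385 and 182. Of 48 nuclear receptors 29 (60.4%) were above background, below the share of all genes. NR2F2 (COUP-TFII) was the only one in the brightest 10%, at 2437, and the glucocorticoid receptor NR3C1 had 847, the retinoic acid receptor RARA 716 and PPARG 681. The sex steroid receptors ESR1 and PGR were near background, at 47.3 and 37.8. Of 20 integrin subunits 15 (75%) were above background, close to the 72.1% of all genes. ITGB4 led with 4600.1, ITGA3 had 1937, ITGA5 737, ITGA2 686 and ITGB1, the common partner of many α subunits, 616. ITGB2, the β subunit of leukocytes, had 894, while ITGA4, ITGB3 and ITGA10 were near background at 72.8, 61.1 and 42.6.

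**Figure D4:**
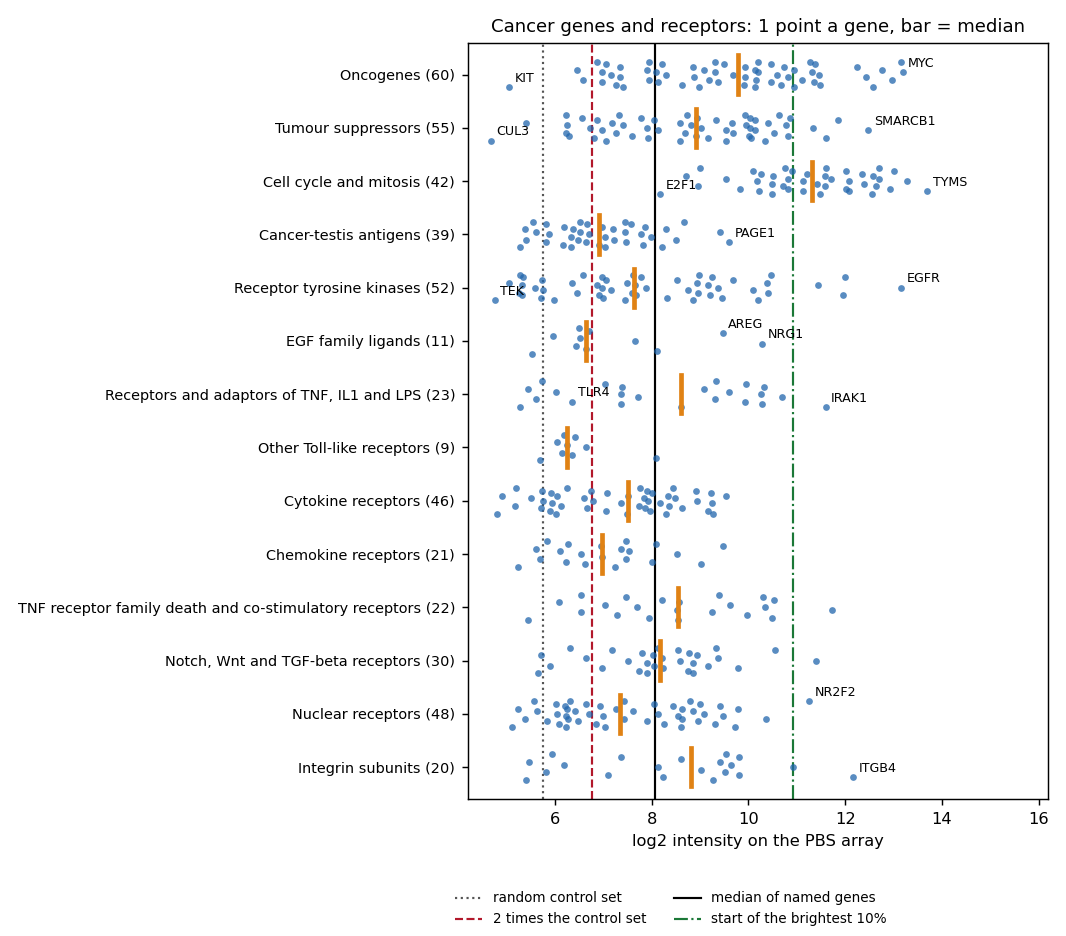
Each point is 1 gene, placed by its log2 intensity on the PBS array (horizontal axis) in the row of its list, with the number of genes measured in brackets, orange bars for list medians and 4 reference lines. The whole cell cycle list lies right of the median gene, while EGF family ligands and Toll-like receptors lie mostly left of 2 times the control set.

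At the top of the ranking were genes of protein synthesis, glycolysis, the cytoskeleton and the keratins. Of the 100 brightest named genes 25 were ribosomal proteins of the fixed list, 7 keratins and 6 glycolytic genes, and all 100 were above background on all 4 arrays. The first place went to PKM, the pyruvate kinase, at 51972, with ALDOA (aldolase) at 47460.0 and GAPDH at 39484 close by. Of 19 glycolysis and lactate genes all were above background (72.1% of all named genes were) and 15 in the brightest 10%. They included ENO1 (19728), LDHB (19369.9), LDHA (11609.6) and the glucose transporter SLC2A1 (7338). Other genes in the first places were HNRNPA1, an RNA-binding protein, at 49582 (its other set was at 6931), TMSB10, an actin-binding thymosin, at 48246, and the ubiquitin gene UBB at 47149.9. ACTB had 31492, TUBA1B 27955 and HMGA1, a chromatin protein of proliferating cells, 26713. ALDH3A1, an aldehyde dehydrogenase of stratified epithelium, had 33152, and it was between 38892 and 52637 on the 3 other arrays. Of 20 genes commonly used as references all were above background and 14 in the brightest 10%. All 76 ribosomal protein genes measured were above background, with a median log2 intensity of 13.41. Some of the named genes are not usually thought of as abundant. WDPCP, a planar polarity and cilium gene, had 33822, SEMA6B, a semaphorin, 31495 and the zinc finger gene ZNF273 23671, each above background on all 4 arrays. Only 19 of the 100 brightest probe sets of the whole array carried a single gene symbol, so much of the brightest signal is not named here.

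Target genes of NRF2, the regulator of the oxidative stress response, were all above background (27 of 27, beside 72.1% of all genes), and 12 lay in the brightest 10%. The ferritin chains FTH1 and FTL had 30925 and 11137, the peroxiredoxin PRDX1 14845, the pentose phosphate enzymes PGD and TKT 11847 and 10603, TXN (thioredoxin) 8228 and GPX2, an epithelial glutathione peroxidase, 2662. Others were dimmer. AKR1C1 had 2026, NQO1 680.0, GCLC 252, GCLM 202, SLC7A11 147 and HMOX1 113.

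Cancer-testis antigens, which are normally limited to germ cells and often appear in carcinomas, were mostly dim. Of 39 measured 20 (51.3%) were above background, beside 72.1% of all genes, and none was in the brightest 10%. On all 4 arrays 13 of the 39 were above background, beside 10624 of 17185 named genes. At 4 times the control set 10 (25.6%) were above the limit, beside 55.7% of all genes. PAGE1 had 780.5, PRAME 685, MAGEB2 406, MAGEA3 231, MAGEA6 178 and MAGEA4 131. CTAG1B (NY-ESO-1) was near background at 58.6. MAGEA members are close copies, so their probe sets may share signal.

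Genes of other lineages were then examined as the silent part of the transcriptome. The 23 lineage lists, less the genes that a squamous, oncology, receptor or metabolism list also held, had 357 measured genes. Of these 192 (53.8%) were above background, against 72.1% of all named genes, and 13 (3.64%) in the brightest 10%. At 4 times the control set 122 (34.2%) were above the limit, against 55.7% of all named genes. The limit of 2 times the control set was thus passed by many genes of other lineages. The median log2 intensity of the pooled genes was 6.92, against 8.07 over all named genes. Of the 357 genes 112 were near background on all 4 arrays, beside 3231 of 17185 named genes. Without the heart muscle list, left out after the data had been seen, 175 of 335 (52.2%) were above background and 7 in the brightest 10%. Their 90th percentile, a reference level added after the data had been seen, was an intensity of 500.5, or 9.25 times the control set, and 34.9% of all named genes exceeded it. Set against that level, 24 of 26 basal squamous genes, all 6 wound-type keratins, 39 of 42 cell cycle genes and 38 of 60 oncogenes were above it. Of the suprabasal and cornified genes 12 of 50 were above it, of EGF family ligands 2 of 11 and of cancer-testis antigens 2 of 39. Since the lists were chosen with earlier results of these data known, these counts are a description only.

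Most lineage lists had a low median. Glia had a median log2 intensity of 5.81, close to the control set, with MBP, a myelin protein, at 213 and 76.7 on its 2 sets and GFAP at 52. Kidney (6.15), prostate and breast (6.21) and liver (6.22) followed. Of 25 liver genes 12 (48%, beside 72.1% of all genes) were above background, and TTR (transthyretin) at 265 was the brightest of the plasma proteins. The liver list also holds FOXA2, a transcription factor of gut endoderm, at 1971. Of 22 neuronal genes 11 (50%) were above background. TUBB3, a tubulin of neurons that carcinomas also make, stood apart at 9371, while STMN2, MAP2 and NEFM were near background at 46.2, 36.3 and 41.3. In the fibroblast list ACTA2 had 2204, the collagens COL1A2, COL1A1 and COL3A1 736, 261 and 149.9, and FAP and LUM were near background at 37.2 and 44.7. Endothelial genes reached at most 533 (ROBO4), and the male germ cell list was near background but for PRM2, a protamine, at 1289, SYCP3 at 252, and TNP1, DDX4 and TNP2 at 138, 130.1 and 129.6. PRM2 had 198, 133 and 273 on the TNFα, IL1β and LPS arrays. Lung genes were brighter, with a median of 8.47. SCGB1A1, a secretoglobin of airway club cells, had 2980.2 and SFTPC, a surfactant protein, 1209.8.

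The heart muscle list had the highest median of the 23 lineage lists. Of 22 genes 17 (77.3%) were above background, close to the 72.1% of all named genes, and 6 (27.3%) were in the brightest 10%. The median log2 intensity was 8.86. On the TNFα, IL1β and LPS arrays 15, 18 and 14 of the 22 were above background, beside 71.4%, 70.6% and 70.8% of all named genes. MYH6 had an intensity of 9469.8, the cardiac troponins TNNT2, TNNI3 and TNNC1 4064, 2445 and 2436, MYH7, the β heavy chain, 3673, and MYL3, a ventricular light chain, 1630.4. The 2 myosin heavy chains are close copies, and so are the actins ACTC1 (17961) and ACTA1 (16488), which resemble the cytoplasmic actins of every cell. Other defining heart genes were dim. The natriuretic peptide NPPA was near background at 74.3, as were TBX5 (58.9), PLN (94.9), CSRP3 (39.6) and ANKRD1 (31.4), and MYL2 had 131. MYH6 was also bright on the TNFα and IL1β arrays, at 14709 and 17101, and near background on the LPS array, at 81.3. The 5 heart markers (MYH6, MYH7, TNNT2, TNNI3 and NPPA) summed to 19725 with PBS and to 28485, 29100.3 and 836 with TNFα, IL1β and LPS. The myeloid list held another uneven set. Of 32 genes 19 (59.4%, beside 72.1% of all genes) were above background with a median of 7.10, and besides LYZ the lipoxygenase partner ALOX5AP had 1244 and the adaptor TYROBP 801. PTPRC, the common leukocyte antigen, was near background with PBS at 91.5, and so were CYBB (44.3), ITGAM (41.2) and LAPTM5 (36.4). On the other arrays PTPRC had 1295 and 1046 with TNFα and IL1β and 81.5 with LPS. LYZ had 5600.2 and 10389.6 with TNFα and IL1β and 209 with LPS. The 4 myeloid markers summed to 8003.5, 7896, 13081 and 435 on the PBS, TNFα, IL1β and LPS arrays. In skeletal muscle 10 of 22 genes (45.5%, beside 72.1% of all genes) were above background. CKM, the muscle creatine kinase, had 2162, whereas MYOD1, MYF6 and the adult myosins MYH1 and MYH2 were near background at 50.9, 41.4, 57.2 and 52.2. Among erythroid genes HBA1, an α globin, had 1824, HBB 135, and the lineage factor GATA1 27.2.

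Each of the other lineage lists, lung aside, held fewer genes over the median gene than under it. Their counts above background stand beside 72.1% of all named genes. In the pancreas list CEL, a lipase, had 1741, INS (insulin) 397 and PDX1 353, while 9 of 14 genes were near background. LEP (leptin) had 1270.3 in the adipocyte list, where 4 of 9 genes were above background and ADIPOQ (adiponectin) had 76.7. Of stomach and intestine 11 of 21 genes were above background, with VIL1 (villin) at 714, MUC2 at 624 and GAST (gastrin) at 491. In the kidney list AQP2, a water channel, had 666 and 7 of 12 genes were near background. Of T and NK lymphocyte genes 13 of 21 were above background, led by CD4 at 595 and ZAP70 at 489.6, and of B lymphocyte genes 6 of 13, led by BLNK at 654 and CD79B at 552 (107 on its other set). Platelet genes were above background in 8 of 9 cases (88.9%, more than the share of all genes), none over 521 (GP1BB). Photoreceptor genes reached 737 (RCVRN, recoverin) with 7 of 12 above background, endocrine genes were above background in 11 of 18 cases, melanocyte genes reached 406 (SOX10) with 4 of 9 above it, and prostate and breast genes 384 (TMPRSS2) with 5 of 12. The pluripotency factors POU5F1 and NANOG, which have near-identical pseudogenes, had 365 and 361, and 5 of 10 genes of that list were above background. Of 18 erythroid genes 10 were above background, and of 19 fibroblast genes 12. Where the signal of these few bright lineage genes came from was not tested.

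**Figure D5:**
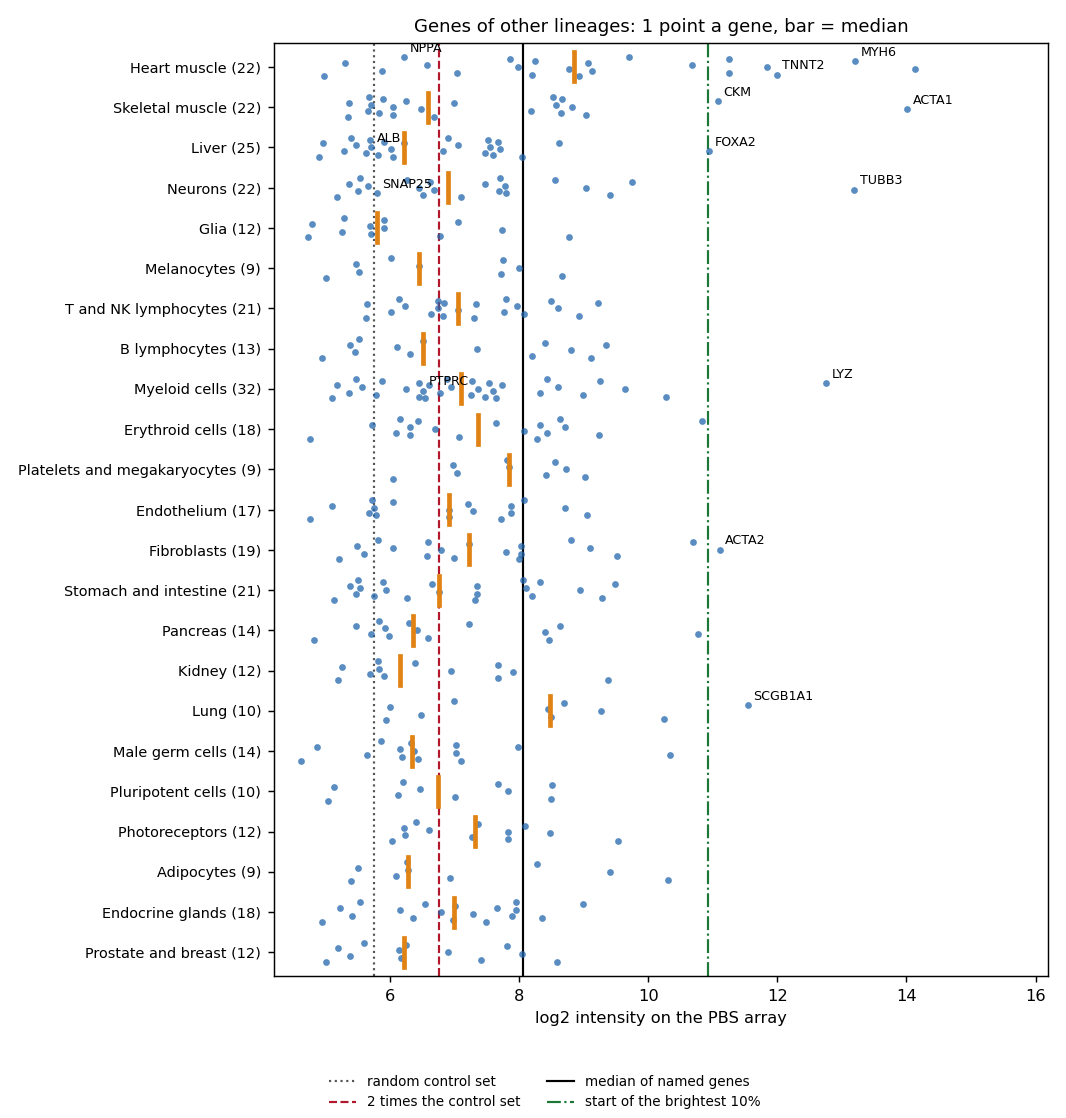
Each point is 1 gene, placed by its log2 intensity on the PBS array (horizontal axis) in the row of its lineage list, with the number of genes measured in brackets, orange bars for list medians and 4 reference lines. Most list medians lie left of the median gene, and heart muscle holds 6 genes right of the start of the brightest 10%, among them MYH6 (9469.8).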

How the data were processed

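Total RNA of KYSE410 cells became Cy3-labelled cDNA for 1 NimbleGen array in each condition, per the labels. The authors deposited 1 RMA intensity per probe set on a linear scale, per the file headers and names. RMA as a rule removes background, equalises arrays and summarises each probe set. Its software, version and settings, not given in the sources used here, could change the values. The authors' series table held the same intensity for all 45033 sets on each array. Nearly every set (45031) had 3 probes, and depth is not defined for an array, so the number of arrays limits the precision.

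Accessions were matched without versions to RefSeq transcripts of GRCh38.p14, for names only. Of 45033 probe sets 18866 (41.9%) had 1 gene symbol and 26167 had none. The brightest set on the PBS array stood for each of 17185 genes. The 48 lists hold 1134 genes, of which 1110 were measured. Of those, 130 had several sets, and in 87 all sets lay on the same side of the limit. Levels, counts and medians were computed with no test. The steps were tested on simulated data.

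Named genes were the 30 brightest (uncharacterised symbols and ribosomal proteins aside), the 3 squamous markers, the brightest and dimmest members of each list, every receptor of the stimuli and EGF ligand, lineage genes over the median, and a few further bright regulators, secreted or surface proteins. Other list members named were chosen after their values were seen. The members and lists were chosen with earlier results of these data known. Alternatives were limits of 1.5, 3 and 4 times the control set, other rules for the probe set, the series table, all 4 arrays and a shorter promoter window. Python 3.11.15, numpy 2.4.6, pandas 2.3.3 and matplotlib 3.10.9 were used. Some members of the lists are not reported here.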

Additional observations from a re-analysis of the deposited data

How the results depend on the processing

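No paired analysis was possible because each condition had 1 array. The count of genes above background (12387) and those of the lists, with the lineage lists pooled, were recomputed under each alternative. Of 236 recomputed values 226 stayed close to the reported one (counts within 1.5 times, percentiles of single genes within 5 points). Part of this was fixed in advance. The series table held the same intensities, and other rules for the probe set could not change the intensities of the 15836 genes with a single set. With a limit of 1.5 times the control set, which 78.8% of all named genes passed, 9 of 11 EGF family ligands (81.8%) and 4 of 9 other Toll-like receptors (44.4%) were above it. With a limit of 4 times, which 55.7% of all named genes passed, 10 of 39 cancer-testis antigens (25.6%), 24 of 52 receptor tyrosine kinases (46.2%), 5 of 21 chemokine receptors (23.8%) and 122 of 357 pooled lineage genes (34.2%) were above it. Counts of single lineage lists were not among the 236 values, and some depended strongly on the limit. At 4 times the control set 3 of 25 liver genes (12%), 8 of 32 myeloid genes (25%) and 5 of 17 endothelial genes (29.4%) were above it. At 2 times these counts were 12, 19 and 10. The heart muscle list changed little, from 17 to 16 of 22. Counting only genes above the limit on all 4 arrays left 13 of 39 cancer-testis antigens, beside 10624 of 17185 named genes. In the 100 bases before the start, which is a shorter window, TATAAA stood in 3.89%, CCAAT in 25.2%, TGANTCA in 1.25% and GGGCGG in 50% of the promoters of the brightest 10% of genes, beside 5.22%, 21.3%, 1.89% and 44.3% of those of all named genes. Signal close to the control set limits what can be said of dim genes, and a single probe set stands for most genes.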

Other observations

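Several groups of genes outside the fixed lists were bright, and they were chosen after their values were seen. The chaperones HSPA1A, HSPB1 and HSP90AA1 had intensities of 24175, 23264 and 17467 with PBS, and the co-chaperones STIP1, FKBP4 and BAG3 had 25031, 21386 and 9889. The antiviral membrane proteins IFITM3 and IFITM2 had 9925 and 8424 without any added stimulus. NECTIN1, an adhesion molecule of adherens junctions, had 10555, BCAM, a laminin receptor, 11661, and EDARADD, the adaptor of the ectodysplasin receptor, 14919.8. CYP2S1, a cytochrome P450 of epithelia, had 15961 and GSTP1, a glutathione transferase, 13629.9. ANXA8, an annexin of stratified epithelia, had 13533. KRTAP20-1, a hair keratin-associated protein, had 12601 from 1 probe set.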
